A study of Mus musculus and Homo sapiens with 19 samples.

Results

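Keratins are the intermediate filament proteins of epithelial cells. The 9 keratin genes Krt5, Krt7, Krt8, Krt14, Krt17, Krt18, Krt19, Krt80 and Krt81 were taken by symbol from each of the deposited tables, in upper case from the human one. They are 9 of 24421 genes in the table of the knockdown experiment, of 57992 in the human table and of 55573 in the co-culture tables, and each symbol matched 1 entry. Groups by role were used: the simple keratins Krt7, Krt8, Krt18 and Krt19, the basal keratins Krt5, Krt14 and Krt17, Krt80 of stratified and differentiating epithelium, and the hair keratin Krt81.

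A keratin filament is built from heterodimers of 1 type I and 1 type II chain. Krt8 is the type II partner of the type I chain Krt18 in simple epithelia, such as the luminal layer of the mammary duct, where Krt7 (type II) and Krt19 (type I) are also made. Krt5 (type II) pairs with Krt14 (type I) in the basal, myoepithelial layer, and Krt17 (type I) is a basal keratin that is known for its induction in wounded and stressed epithelium. Most type I genes lie in one cluster of the genome and the type II genes in another, with the exception that Krt18 sits beside its partner Krt8 in the type II cluster.

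The RNA-seq series concerns PHGDH, the first enzyme of serine synthesis from glucose, in breast cancer cells. The 19 libraries came from cultured lines. In 4T1, 3 libraries carried a scramble shRNA (shSCR) and 3 an shRNA against PHGDH (shPHGDH), both from the pLKO.1 vector; 4T1 is a mouse mammary tumour line. In MDA-MB-231, a human triple-negative breast cancer line, 3 libraries were controls and 3 were labelled as overexpressing PHGDH from a pLHCX vector. In the co-culture set there was 1 library each of 4T1, of EMT6.5 (another mouse mammary tumour line) and of Bend3 (a mouse endothelial line) grown alone, and 1 each of 4T1, EMT6.5 and Bend3 sorted by FACS from a co-culture of tumour cells with Bend3; Bend3 was sorted from both. The labels do not give the number of clones or of shRNA sequences, nor whether replicates were separate cultures, so p-values cover only the variation among the libraries at hand, which may be technical. Assigned counts were 12.7 to 20.5 M a library in the knockdown, 19.5 to 23.8 M in MDA-MB-231 and 4.27 to 7.67 M in the co-culture set. In CPM (counts per M of the library, TMM-scaled), Phgdh went from 168 ± 4.58 in shSCR to 20.9 ± 0.745 in shPHGDH (SD, n = 3 each), with no shSCR library below 163 and no shPHGDH library above 21.7, 7.99-fold lower (edgeR adjusted p = 5.16e-28). In MDA-MB-231, whose controls the labels do not describe further, the targeted gene went against the labels: PHGDH was at 15.5, 15.6 and 18.3 CPM across controls against 5.98, 4.53 and 5.71 CPM in the libraries labelled PHGDH-overexpressing, 3.06-fold lower (edgeR adjusted p = 5.76e-10). Those libraries are therefore called by their label only, and no direction below is tied to the PHGDH level.

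On GRCm38, the type II members Krt80, Krt7, Krt81, Krt5 and Krt8 lie on chromosome 15 in that order, with Krt18 after Krt8. Krt80 spans 101347444 to 101370162, Krt7 101411043 to 101430313, Krt81 101459061 to 101463751 and Krt5 101707070 to 101712898. Krt8 spans 101996698 to 102004482 on the minus strand and Krt18 102028180 to 102032027 on the plus strand, so this pair is transcribed away from each other. The other type I members lie on chromosome 11, all on the minus strand: Krt19 from 100140810 to 100148665, Krt14 from 100203162 to 100207548 and Krt17 from 100256217 to 100261029. The span is that of the whole gene, exons and introns, in GENCODE vM21.

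The promoters of 3 members are shown because Krt8 and Krt18 stand next to each other and rose together in the knockdown, while Krt7, on the same chromosome, fell. Each window runs from 250 bases before to 50 after the RefSeq start site (GRCm38.p6) and is written 5′ to 3′ on the gene's strand, at chr15:102004293-102004592 (minus) for Krt8, chr15:102027966-102028265 (plus) for Krt18 and chr15:101412153-101412452 (plus) for Krt7. Capitals mark matches, on either strand, to the GC box GGGCGG, the TATA box TATAAA, the AP-1 site TGANTCA, the AP-2 site GCCNNNGGC and the E-box CAGGTG that ZEB and SNAIL repressors bind.
Krt8: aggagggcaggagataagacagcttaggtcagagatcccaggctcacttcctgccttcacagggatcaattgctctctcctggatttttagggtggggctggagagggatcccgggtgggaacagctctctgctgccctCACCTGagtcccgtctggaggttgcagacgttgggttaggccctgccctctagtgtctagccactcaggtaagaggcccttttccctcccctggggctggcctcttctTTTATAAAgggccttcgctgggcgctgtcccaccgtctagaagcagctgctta
Krt18: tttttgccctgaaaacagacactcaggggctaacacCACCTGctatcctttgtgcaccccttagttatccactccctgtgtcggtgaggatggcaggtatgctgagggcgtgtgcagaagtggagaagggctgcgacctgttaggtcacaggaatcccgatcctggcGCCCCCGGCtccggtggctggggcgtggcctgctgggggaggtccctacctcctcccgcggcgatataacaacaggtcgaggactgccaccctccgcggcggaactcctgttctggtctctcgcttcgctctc
Krt7: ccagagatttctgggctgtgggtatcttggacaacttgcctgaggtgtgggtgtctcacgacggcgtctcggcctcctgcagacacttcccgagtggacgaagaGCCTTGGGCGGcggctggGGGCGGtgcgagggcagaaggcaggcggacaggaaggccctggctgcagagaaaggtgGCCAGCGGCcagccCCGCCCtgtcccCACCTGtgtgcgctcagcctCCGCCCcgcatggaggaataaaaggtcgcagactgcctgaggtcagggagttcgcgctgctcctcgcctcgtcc
The Krt8 window held 2 overlapping TATA box matches, which are 1 stretch read on both strands at the RefSeq start site, and 1 E-box 111 bases before it. The Krt18 window held 1 AP-2 match and 1 E-box. The Krt7 window held 4 GC boxes, 2 AP-2 matches, 1 of them overlapping a GC box, and 1 E-box. None of the 3 held an AP-1 match. Of all 32851 RefSeq promoter windows of 300 bases, 35.7% held a GC box, 13.6% a TATA box, 7.81% an AP-1 site and 16.6% an AP-2 site, while 6640 held the E-box. These are letter matches, not measured binding. The RefSeq start of Krt7 lies 1360 bases inside the outermost GENCODE start, that of Krt8 140 and that of Krt18 36. Promoter windows were found for 5 of the 9 members (also Krt5 and Krt14).

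In the PHGDH knockdown of 4T1, keratins split. Krt18 and Krt8, the main simple pair, rose 1.47-fold and 1.25-fold, and Krt80 rose 1.23-fold. Krt17 fell 9.67-fold, Krt14 2.03-fold, Krt19 1.96-fold and Krt7 1.11-fold. Krt5 and Krt81 had 0 counts in all 6 libraries. Of 9 members, 7 passed the filter on low counts; 3 of them were higher and 4 lower in shPHGDH (edgeR adjusted p under 0.05), and for all 7 the 3 shSCR values did not overlap the 3 shPHGDH values. The background was high: 59.7% of the 11568 genes tested were called, 30.1% higher and 29.6% lower, and 63.2% had groups that did not overlap. A call alone is therefore near the background. At least 2-fold lower were 1.90% of tested genes, and Krt17 and Krt14 were among them. In bulk RNA, fewer cells of a type and less RNA per cell cannot be told apart.

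Krt18 was at 888, 927 and 896 CPM in shSCR and at 1310, 1330 and 1340 CPM in shPHGDH. Its mean went from 903 ± 20.4 to 1330 ± 15.6 CPM (SD, n = 3 each; log2 0.55, SE 0.024, edgeR adjusted p = 3.14e-17). The lowest shPHGDH library was well above the highest shSCR library. Krt8, its filament partner, was at 652, 672 and 662 CPM in shSCR and at 828, 822 and 839 CPM in shPHGDH (log2 0.33, SE 0.023, edgeR adjusted p = 1.11e-12). Within each group its 3 values lay close together, and the groups were apart. The rise of Krt8 was smaller than that of Krt18, so the ratio of Krt8 to Krt18 in CPM per kb of merged exons was 0.532 to 0.543 in shSCR and 0.454 to 0.464 in shPHGDH. Krt8 shares 29.7% of its 50-base stretches with other transcripts, 26.9% with the pseudogene Krt8-ps, so reads counted to it depend on how the authors treated multiple alignments; Krt18 shares 0.72%.

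Krt7, a type II keratin of ducts and glands, was at 921, 934 and 893 CPM in shSCR and at 832, 812 and 836 CPM in shPHGDH (log2 -0.15, SE 0.024, edgeR adjusted p = 6.03e-06). The groups did not overlap, but the change was the smallest of the 7. Krt19, the type I keratin that lacks most of the usual tail domain, was at 127, 135 and 130 CPM in shSCR and at 64.8, 67.8 and 67.4 CPM in shPHGDH (log2 -0.97, SE 0.036, edgeR adjusted p = 8.05e-19). Every shPHGDH library held less Krt19 than any shSCR library. So among the 4 simple keratins 2 rose and 2 fell, and the median of their log2 changes was 0.09 against -0.01 over all tested genes.

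The 2 basal keratins that were measured both fell. Krt14 was at 174, 182 and 176 CPM in shSCR and at 88.8, 84.1 and 87.7 CPM in shPHGDH (log2 -1.025, SE 0.034, edgeR adjusted p = 1.12e-19). Krt17 was at 37.5, 37.4 and 38.8 CPM in shSCR, or 548, 643 and 745 counts, and at 3.79, 3.66 and 4.18 CPM in shPHGDH, or 60, 46 and 85 counts (log2 -3.27, SE 0.086, edgeR adjusted p = 2.97e-22). Both genes were separated without overlap. Krt14 shares 14.4% of its 50-base stretches with other keratin transcripts, mainly Krt16, and Krt17 shares 3.99%, mainly with Krt14. Krt5, the usual partner of Krt14, was at 0 in every shSCR and shPHGDH library. A count of 0 over the 3 libraries of a group allows up to 0.0588 CPM in shSCR and 0.0615 CPM in shPHGDH, from 3 counts and for counting error only.

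Krt80 was at 62.3, 62.7 and 59.1 CPM in shSCR and at 78.6, 73.1 and 74.3 CPM in shPHGDH (log2 0.30, SE 0.041, edgeR adjusted p = 4.85e-07). The groups did not overlap. Krt81 had no counts, with the same limits as Krt5.

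**Figure D1:**
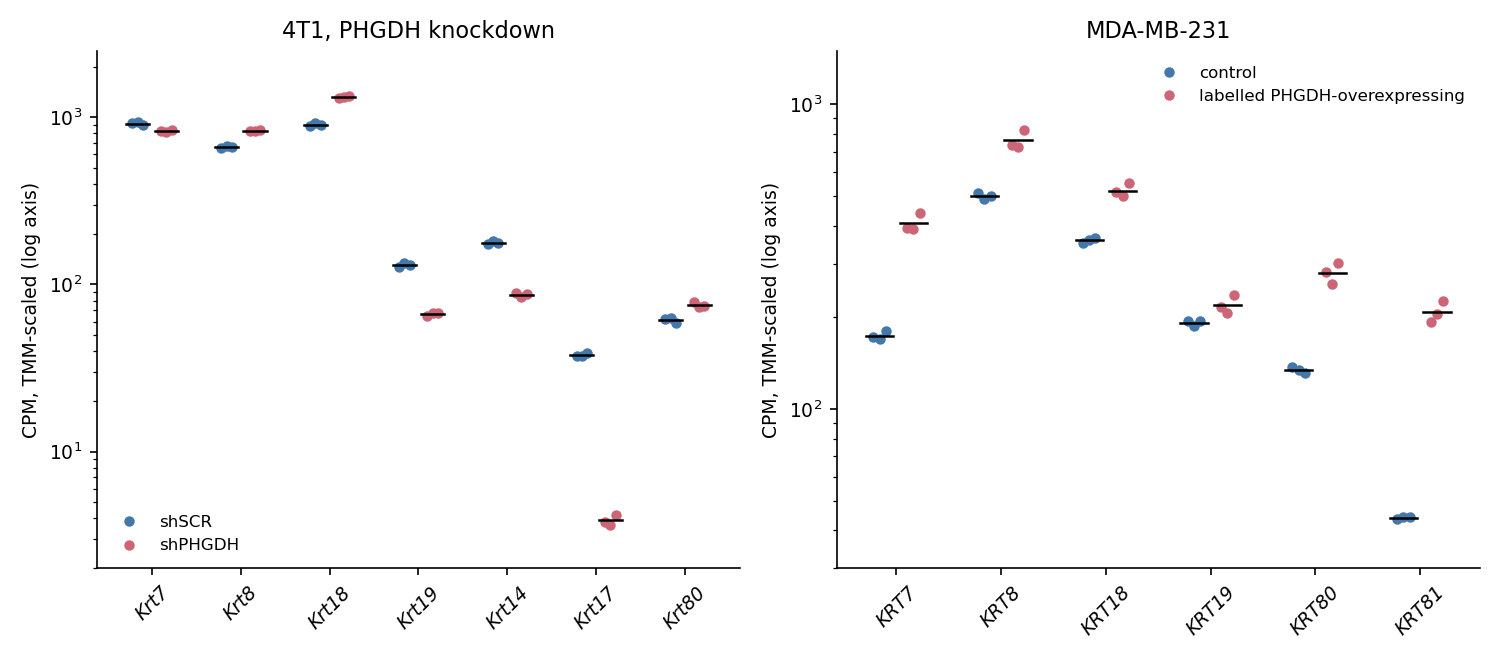
Each point is 1 library's TMM-scaled CPM of a keratin on a log axis, with the mean as a bar, for 4T1 (left, 3 shSCR and 3 shPHGDH libraries) and MDA-MB-231 (right, 3 controls and 3 libraries labelled PHGDH-overexpressing). In 4T1, Krt17 dropped from 37.4 to 38.8 CPM down to 3.66 to 4.18 CPM while Krt8 and Krt18 rose; in MDA-MB-231 all 6 keratins shown were higher in the labelled libraries. Members at 0 or below 1 CPM are not drawn.

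Length scaling gives the order of the members. Per kb of merged exons, Krt18 led in shSCR at 629 CPM per kb, followed by Krt8 at 338, Krt7 at 224, Krt14 at 104, Krt19 at 82.8, Krt17 at 24.4 and Krt80 at 13.7 CPM per kb. In shPHGDH the levels were 923 CPM per kb for Krt18, 424 for Krt8, 202 for Krt7, 51.2 for Krt14, 42.3 for Krt19, 16.8 for Krt80 and 2.5 for Krt17, so Krt80 and Krt17 changed places. In both groups each neighbour in the order was separated from the next by more than the spread of the 3 libraries. Among the 23376 genes with a length, Krt18 went from rank 28 to rank 13 by this level and Krt8 from 91 to 65. Krt7 went from rank 164 to 199, Krt14 from 502 to 1412, Krt19 from 710 to 1770 and Krt17 from 3064 to 8915.

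Summed, the simple keratins outweighed the basal ones in both groups, and more so after knockdown. The simple sum was 1260, 1300 and 1260 CPM per kb in shSCR and 1580, 1590 and 1610 CPM per kb in shPHGDH. The basal sum was 126, 131 and 129 CPM per kb in shSCR and 54.7, 51.9 and 54.4 CPM per kb in shPHGDH. Neither sum overlapped between the groups. The log2 ratio of simple to basal was 3.31 ± 0.0104 in shSCR and 4.89 ± 0.0426 in shPHGDH (SD, n = 3 each), a difference of 1.58. Basal keratins made up 9.05% to 9.16% of the summed member level in shSCR and 3.14% to 3.32% in shPHGDH. This score is a description without a test, and within the simple group it hides the drop of Krt7 and Krt19. Class and chromosome also largely go together in it. Krt18, Krt8 and Krt7 lie on chromosome 15, where the median log2 change of tested genes was 0.28. Krt14 and Krt17 lie on chromosome 11, with a median of -0.04. Krt19, the simple keratin on chromosome 11, changed by -0.97, near Krt14 at -1.025. What class and chromosome each add to the score was not tested. The ratio of Krt7 to Krt8 per kb, both type II, went from 0.662 ± 0.0157 to 0.476 ± 0.00451, and that of all type II to all type I members from 0.685 ± 0.00721 to 0.631 ± 0.0085 (SD, n = 3 each).

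**Figure D2:**
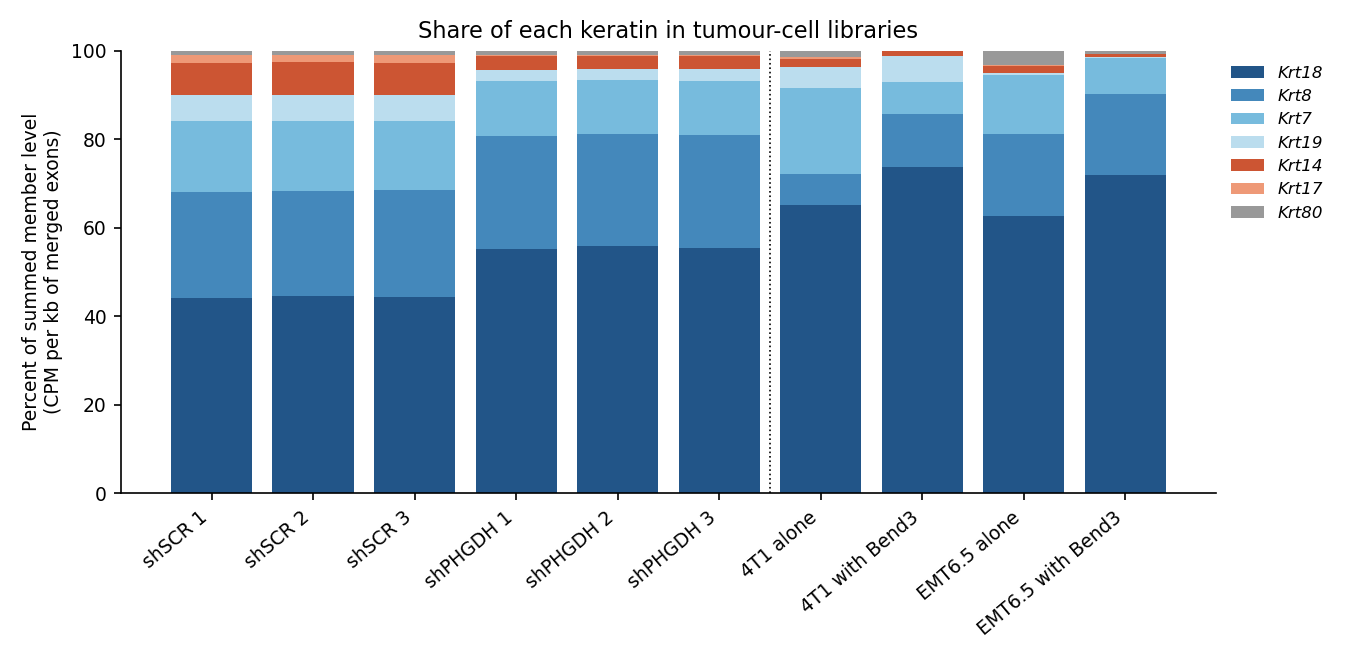
Stacked bars give each keratin's percent of the summed member level (CPM per kb of merged exons) in the 6 knockdown libraries and, right of the dotted line, in the 4 tumour-cell libraries of the co-culture set, which were normalized separately; simple keratins are blue, basal ones red to orange and Krt80 grey. Krt14 and Krt17 together took 9.05% to 9.16% in shSCR, 3.14% to 3.32% in shPHGDH and 0.812% to 2.05% in the co-culture set.

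The keratins of chromosome 15 lay among genes that were mostly higher in shPHGDH, and those of chromosome 11 did not. On chromosome 15, 311 of 444 tested genes were higher in shPHGDH and 23 were lower, with a median log2 change of 0.28; on chromosome 11, 197 of 929 were higher and 297 lower, with a median of -0.04. Among the 50 tested non-keratin genes nearest to Krt8, 40 were higher, 0 were lower by the edgeR call and 10 were not called, with a median of 0.32. Relative to the chromosome median, the log2 change was 0.04 for Krt8 and 0.02 for Krt80, so both moved as much as the typical gene of their chromosome. It was 0.27 for Krt18 and -0.43 for Krt7, which lay on opposite sides of that median. The type I members on chromosome 11 kept nearly all of their drop, at -0.93 for Krt19, -0.985 for Krt14 and -3.23 for Krt17. Around Krt14, the 50 nearest non-keratin genes had 13 higher, 15 lower and 22 not called. What shifted chromosome 15 was not tested.

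**Figure D3:**
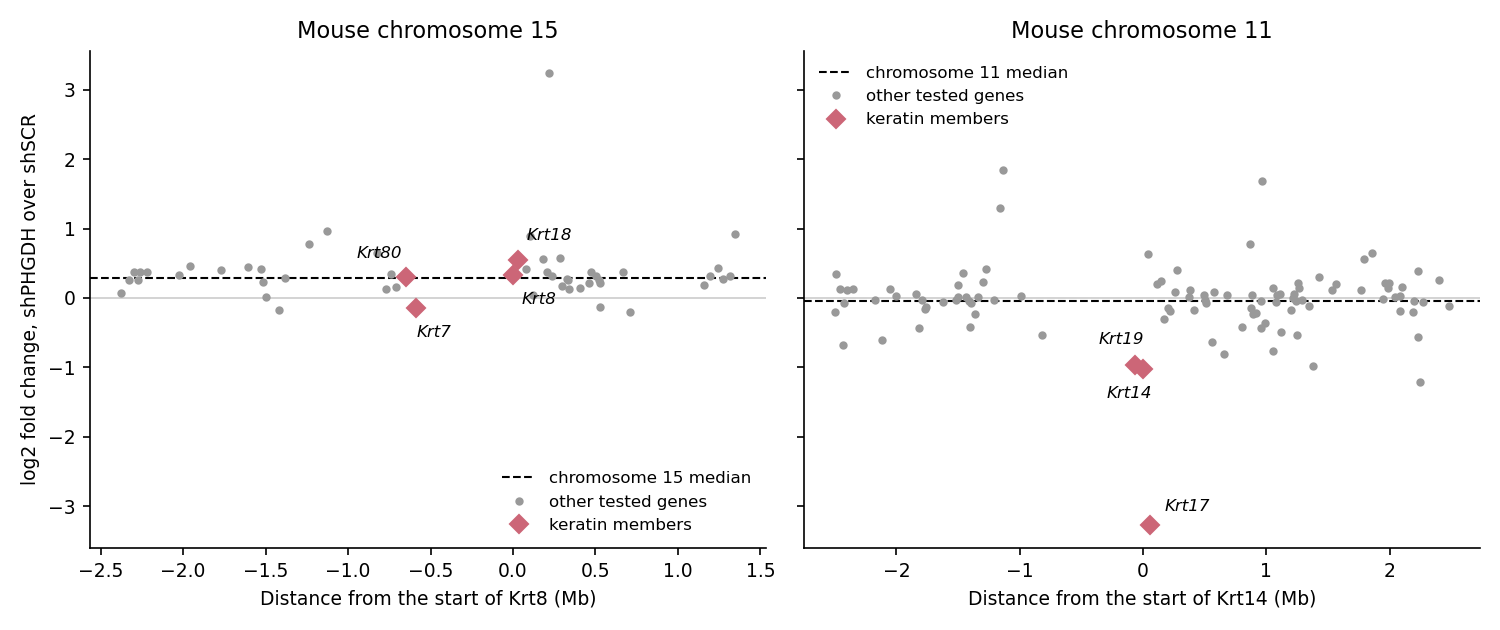
Log2 fold change of shPHGDH over shSCR (vertical axis) for every tested gene within 2.5 Mb of Krt8 on chromosome 15 (left) and of Krt14 on chromosome 11 (right), against the distance from that gene's start in Mb, with keratin members as diamonds and the median of the chromosome as a dashed line. Krt8 and Krt80 lie on the dashed line of chromosome 15 (0.28), Krt18 above and Krt7 below it; Krt19, Krt14 and Krt17 lie below the dashed line of chromosome 11 (-0.04).

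The libraries shSCR 1 and 2 were run on sequencing lane 5 and the other 4 on lane 6. Within lane 6, where 1 shSCR library stands against 3 shPHGDH libraries and is assumed to vary like them, all 7 calls were kept in direction and side of the threshold. The log2 changes there were -0.11 for Krt7, 0.325 for Krt8, 0.57 for Krt18, -0.96 for Krt19, -1.01 for Krt14, -3.31 for Krt17 and 0.35 for Krt80.

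The rest of the keratin family was nearly silent in 4T1. Of 46 other keratin genes listed, 43 were in the table, 29 of those were at 0 in all 6 libraries and 2 were tested. Krt10 fell (log2 -0.54, SE 0.162, from 4.09 to 2.76 CPM, edgeR adjusted p = 0.00567) and Krt16, a type I partner of Krt6 chains in stressed epithelium that lies between Krt14 and Krt17, rose (log2 0.63, SE 0.186, from 2.23 to 3.38 CPM, edgeR adjusted p = 0.00484). So the gene between the 2 falling basal keratins went the other way, at a level of 32 to 78 counts a library.

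Genes that anchor keratin filaments were called at a rate near that of all genes. Of 18 tested linkers and desmosome genes, 4 rose, 8 fell and 6 were not called, with a median log2 change of -0.09. That is 66.7% called, against 59.7% of all tested genes, 30.1% higher and 29.6% lower. The desmosomal cadherin Dsc2 fell by 2.09 on the log2 scale (from 22.8 to 5.37 CPM) and Evpl, the plakin envoplakin, by 1.37 (from 14.0 to 5.42 CPM). Pkp3 (plakophilin) and Jup (plakoglobin), which tie cadherins to the plaque, fell by 0.425 and 0.31. The hemidesmosome integrin subunit Itga6 rose by 0.76, from 233 to 394 CPM, and the large linker Plec by 0.42, on chromosome 15. Adjusted p-values of these 6 genes were at most 3.35e-08 (edgeR).

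Of 13 tested regulators known from keratin promoters, 8 rose, 3 fell and 2 were not called, with a median of 0.28. That is 84.6% called, against 59.7% of all tested genes, 30.1% higher and 29.6% lower. Klf5 rose by 0.59 on the log2 scale (on chromosome 14, whose median was 0.51), Cebpb by 0.51, Gata3 by 0.485, Klf4 by 0.45 and Elf3 by 0.44, while Sox9 fell by 0.35. Their adjusted p-values were at most 0.000139 (edgeR). Among other intermediate filaments, 2 of 6 tested genes rose and 2 fell, so 66.7% were called, near the share of all genes. Vim, the intermediate filament of mesenchymal cells, went from 779 ± 12.3 to 1630 ± 3.17 CPM (SD, n = 3 each; log2 1.07, edgeR adjusted p = 6.2e-24), the lamin Lmna rose by 0.23, and Nes and Lmnb1 fell by 0.24 and 0.19.

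Of 20 epithelial markers, all tested, 13 fell, 5 rose and 2 were not called, with a median log2 change of -0.42. That is 90.0% called, against 59.7% of all tested genes, 29.6% lower and 30.1% higher. Their summed level went from 2870 to 2970 CPM in shSCR to 2130 to 2160 CPM in shPHGDH. Markers of other cells were low: the summed endothelial markers were at 63.3 to 69.9 and 94.3 to 96.4 CPM, fibroblast markers at 23.5 to 27.9 and 16.9 to 18.9 CPM and leukocyte markers at 9.30 to 10.9 and 13.9 to 15.6 CPM, in shSCR and shPHGDH. Lum and Cd3e were at 0 in all 6. Their part in the keratin changes was not tested.

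In MDA-MB-231, the 6 members with enough counts to test were higher in the libraries labelled PHGDH-overexpressing. KRT81 rose 4.73-fold, KRT7 2.34-fold, KRT80 2.09-fold, KRT8 1.52-fold, KRT18 1.46-fold and KRT19 1.15-fold. Of 9 members 6 were tested, and 6 were higher and 0 lower by edgeR; the call of KRT19 was lost in some settings, given below. For all 6 the groups did not overlap. Of 17663 tested genes 44.5% were called, 21.6% higher and 22.9% lower, and 52.5% had groups that did not overlap, 26.0% with the labelled libraries higher. At least 2-fold higher were 3.06% of tested genes, and KRT81, KRT7 and KRT80 were among them. The median log2 change was 0.835 over the 6 members and -0.01 over all tested genes. Human gene positions were not used, so these changes were not set against those of neighbouring genes.

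KRT81, a type II hair keratin, was at 43.6, 44.1 and 44.3 CPM across controls against 193, 205 and 226 CPM in the labelled libraries (log2 2.24, SE 0.068, edgeR adjusted p = 5.7e-17). The controls were nearly equal, and all 3 labelled libraries were far above them. Other hair keratin genes were also higher. KRT86 rose by 1.69 on the log2 scale, from 6.58 to 21.3 CPM, KRT83 by 2.05, from 1.56 to 6.52 CPM, KRT85 by 2.45, from 0.238 to 1.32 CPM, and the pseudogene KRT87P by 1.95, from 3.28 to 12.7 CPM (edgeR adjusted p at most 6.08e-05). Human transcripts were not compared here; in mouse, 43.5% of the 50-base stretches of Krt81 occur in other genes, mainly Krt86, so reads shared between such genes may make the values of single human genes uncertain.

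KRT7 was at 172, 170 and 180 CPM across controls against 392, 389 and 441 CPM in the labelled libraries (log2 1.23, SE 0.061, edgeR adjusted p = 4.76e-13). KRT80 was at 137, 134 and 131 CPM and at 282, 258 and 301 CPM (log2 1.06, SE 0.062, edgeR adjusted p = 6.59e-12). Both were clear of any overlap, with the third labelled library the highest for each.

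KRT8 was at 512, 488 and 501 CPM across controls against 737, 725 and 824 CPM in the labelled libraries (log2 0.61, SE 0.059, edgeR adjusted p = 2.7e-08). KRT18 was at 352, 359 and 364 CPM and at 514, 499 and 551 CPM (log2 0.54, SE 0.057, edgeR adjusted p = 7.61e-08). The 2 partners moved by similar amounts, and neither overlapped between groups. The 50 listed KRT8 pseudogenes together held 262 to 417 counts a library and the 67 KRT18 pseudogenes 41 to 78, small beside 9776 or more counts of KRT8 and 7186 or more of KRT18.

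KRT19 was at 194, 188 and 194 CPM across controls against 217, 207 and 236 CPM in the labelled libraries (log2 0.20, SE 0.06, edgeR adjusted p = 0.00979). The lowest labelled library was above the highest control by a small margin. The call did not hold when library totals replaced TMM (log2 0.14, edgeR adjusted p = 0.0572), without control replicate 2 (adjusted p = 0.054) and without labelled replicate 3 (adjusted p = 0.0519).

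Basal keratins were at or near 0 in MDA-MB-231. KRT5 had 0 counts in all 6 libraries, which allows up to 0.0466 CPM over the controls and 0.0486 CPM over the labelled libraries. KRT14 had 1, 3 and 0 counts in the controls and 0 in each labelled library, and KRT17 had 1, 2 and 1 and 2, 3 and 5. These are too few to test. With no basal sum to divide by, no simple to basal ratio is given for this line, and no human gene lengths were used here, so human members are not ordered by level.

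The list of other keratins had 43 genes in the human table, and edgeR tested 6 of them. The 3 that rose were KRT83, KRT85 and KRT86; KRT34 (log2 0.56, edgeR adjusted p = 0.138), KRT15 (-0.49, adjusted p = 0.0654) and KRT10 (0.18, adjusted p = 0.125) were not called. All 7 tested intermediate filaments of other types rose, among them GFAP by 1.09 on the log2 scale, NES by 0.69, LMNB2 and SYNM by 0.42 each, LMNA by 0.37 and VIM by 0.37, from 3720 to 4790 CPM (edgeR adjusted p at most 4.31e-05 for these 6). Of 16 tested linkers 4 rose, 6 fell and 6 were not called. Calls covered 62.5% of these linkers, against 44.5% of all tested genes, 21.6% higher and 22.9% lower. ITGA6 fell by 0.97 on the log2 scale, DSP, the desmosomal plakin that binds keratin, by 0.83, DST by 0.61 and TCHP by 0.43, while ITGB4 rose by 0.57 and PPL by 0.55 (edgeR adjusted p at most 9.4e-05). Of 11 tested regulators 1 rose, CEBPB by 0.79, and 5 fell, among them TFAP2C by 1.265 and TFAP2A by 0.84 (edgeR adjusted p at most 2.49e-06 for these 3). The anchoring genes moved in both directions in each experiment, as did all tested genes, so nothing is read from that. Itga6 rose in 4T1 and ITGA6 fell in MDA-MB-231.

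The epithelial markers of MDA-MB-231 summed to 394 to 410 CPM in the controls and 446 to 471 CPM in the labelled libraries. Of 20, 12 were tested, 4 of them higher and 3 lower. That is 58.3% called, against 44.5% of all tested genes, 21.6% higher and 22.9% lower. Fibroblast markers summed to 120 to 127 and 164 to 183 CPM and endothelial markers to 198 to 200 and 178 to 191 CPM; CDH5 was at 0. Their part in the keratin rise was not tested.

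In the co-culture set each condition is 1 library, so ratios have no test and no replicate check, and their 95% intervals cover counting error only. Sorting by FACS is given above for the co-cultured cells only, so sorting and co-culture cannot be told apart in these ratios. In 4T1 sorted from co-culture with Bend3, the keratins Krt8, Krt19 and Krt18 were higher than in 4T1 alone and Krt80 was far lower. In EMT6.5, Krt18 and Krt8 were close to their level alone while Krt7, Krt14 and Krt80 were lower. Of the members with a mean of at least 5 CPM, 4T1 had 6, of which 3 were at least 2-fold higher, 1 was at least 2-fold lower and 2 changed less; the background was 25.5% of 10129 genes at 2-fold either way, 14.6% higher and 10.9% lower. EMT6.5 had 5, with 0 higher, 2 lower and 3 under 2-fold, against 11.6% of 10220 genes either way, 5.40% higher and 6.18% lower.

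In 4T1, Krt18 was at 396 CPM alone (1843 counts) and at 812 CPM with Bend3 (3521 counts), 2.05-fold higher (1.94 to 2.17). Krt8 was at 58.9 and 177 CPM (274 and 769 counts), 3.01-fold higher (2.62 to 3.47), and Krt19 at 32.7 and 70.3 CPM, 2.15-fold higher (1.77 to 2.63). These 3 intervals stayed above 1, and with library totals as the scaling Krt18 came to 1.93-fold, under the 2-fold line. Krt14 was at 12.9 and 16.1 CPM on 60 and 70 counts, a ratio of 1.25 (0.874 to 1.80) that counting error covers. Krt7 was at 335 and 226 CPM, 1.49-fold lower (1.37 to 1.61). Krt80 was at 28.8 and 1.84 CPM, on 134 and 8 counts, 15.6-fold lower (7.70 to 36.9). Krt17 had 8 counts alone (1.72 CPM) and 0 with Bend3, where 3 counts would be 0.692 CPM.

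In EMT6.5, Krt18 was at 384 CPM alone and 372 with Bend3 (ratio 0.968, 0.913 to 1.03). Krt8 was at 154 and 130 CPM (ratio 0.846, 0.767 to 0.932). The difference for Krt18 was within counting error and that for Krt8 was not. Krt7 was at 236 and 120 CPM, 1.97-fold lower (1.79 to 2.16; ratio 0.494 with library totals, past the 2-fold line, which makes 3 lower), Krt14 at 11.9 and 4.97 CPM, 2.40-fold lower (1.52 to 3.93), and Krt80 at 61.3 and 11.4 CPM, 5.38-fold lower (4.07 to 7.25). Krt80 was thus lower with Bend3 in both lines, and Krt7 as well. Krt19 was at 2.46 and 0.414 CPM on 20 and 2 counts, and Krt17 and Krt81 had 7 and 4 counts alone and 0 with Bend3.

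**Figure D4:**
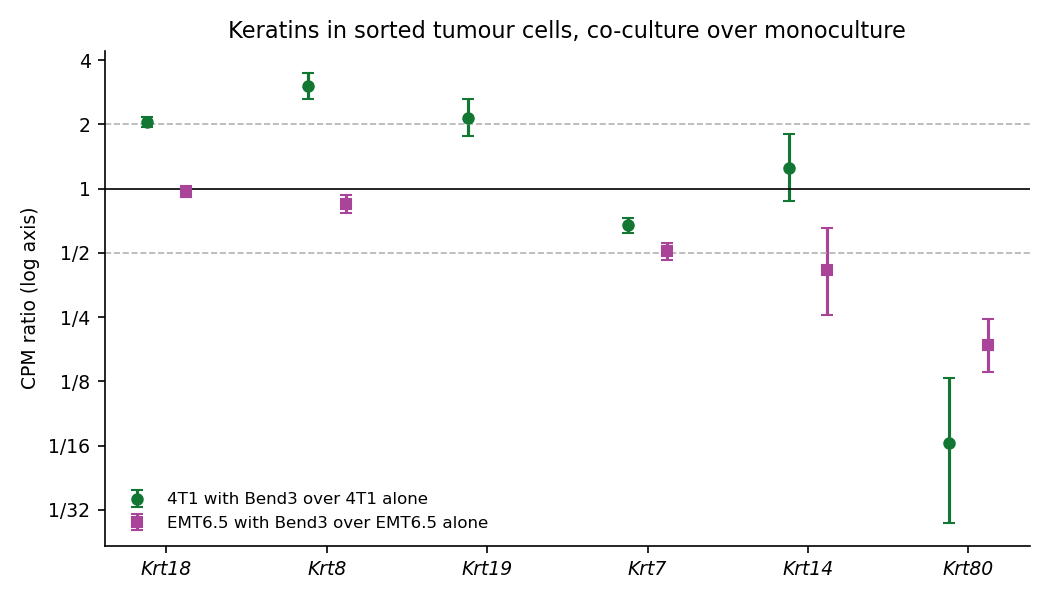
CPM ratio of sorted co-cultured over monocultured tumour cells on a log axis for the keratins with a mean of at least 5 CPM, with 95% counting intervals as bars, circles for 4T1 and squares for EMT6.5, 1 library per condition; dashed lines mark 2-fold. Krt8, Krt18 and Krt19 were above 1 in 4T1, Krt80 was below 1/2 in both lines, and Krt19 is not drawn for EMT6.5, where it was below 5 CPM.

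The simple to basal log2 ratio per kb was 5.55 in 4T1 alone, 6.31 in 4T1 with Bend3, 5.74 in EMT6.5 alone and 6.92 in EMT6.5 with Bend3. Type II over type I per kb was 0.388 and 0.236 in 4T1 alone and with Bend3 and 0.542 and 0.375 in EMT6.5. The ratio of Krt8 to Krt18 per kb was 0.109 in 4T1 alone and 0.16 with Bend3, and 0.294 and 0.256 in EMT6.5. In these libraries 48.2% to 55.3% of entries were aligned to several places, against 3.54% to 3.70% in MDA-MB-231, and Krt8-ps had 0 counts; what this took from Krt8 was not tested. The antisense and overlapping genes Gm35853, Gm671 and Gm36026 had at most 20 counts each.

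Endothelial and fibroblast markers summed higher with Bend3 in 4T1 and changed little in EMT6.5. In 4T1 the summed endothelial markers went from 98.4 CPM alone to 223 CPM with Bend3, with Pecam1 at 7.74 and 30.4 CPM, and 20 of 20 epithelial markers were detected in both (1530 and 1380 CPM summed). In EMT6.5 the endothelial sum was 120 and 131 CPM, and the epithelial sum went from 158 to 77.8 CPM. Fibroblast markers at 5 CPM or more went from 1 to 5 of 10 in 4T1, where they summed to 182 CPM with Bend3, and summed to 2880 and 2720 CPM in EMT6.5. Vim was at 1770 and 4870 CPM in 4T1 and at 2130 and 3360 CPM in EMT6.5, alone and with Bend3. Bend3 grown alone held 1.35 CPM of all 9 members together. The part of these markers in the keratin ratios was not tested.

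Between the tumour lines grown alone, 2 of 6 keratins with enough counts were at least 2-fold higher in EMT6.5 and 1 was at least 2-fold lower, against 34.0% of 10272 genes either way, 19.5% higher and 14.6% lower. Krt8 was 2.61-fold higher in EMT6.5 than in 4T1 (2.29 to 2.98) and Krt80 2.13-fold higher (1.75 to 2.59). Krt19 was 13.3-fold lower (8.30 to 22.4) and Krt7 1.42-fold lower (1.33 to 1.52). Krt18 (ratio 0.970, 0.915 to 1.03) and Krt14 (0.925, 0.664 to 1.30) differed by no more than counting error. EMT6.5 carried Krt8 and Krt18 while Cdh1 was at 0.123 and Epcam at 0.246 CPM, against 599 and 65.1 CPM in 4T1. Of 20 epithelial markers 13 were detected and 5 reached 5 CPM in EMT6.5 alone, among them Cldn4 at 49.7 CPM, against 20 of 20 in 4T1. The other 7 were at 0 in EMT6.5 alone (Cldn7, Crb3, Esrp1, Esrp2, Grhl2, Marveld3 and Ocln). All 20 together summed to 158 CPM, against 1530 CPM in 4T1. Fibroblast markers summed to 2880 CPM in EMT6.5, where 4 of 10 reached 5 CPM, against 1 of 10 in 4T1.

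Bend3 grown alone had 2 counts each of Krt7, Krt8 and Krt18 (0.449 CPM) and 0 of the other 6 members, with endothelial markers summing to 10300 CPM. Sorted from co-culture with 4T1 it held 17 CPM of Krt7 (93 counts), 15.5 of Krt18 (85 counts), 6.20 of Krt8 (34 counts) and 2.19 CPM of Krt19 (12 counts). The ratios to Bend3 alone were 37.7 (10.2 to 316) for Krt7 and 34.5 (9.26 to 289) for Krt18, each on 2 counts in the library below. Only these 2 members averaged 5 CPM or more, and they did so through the co-culture library alone, so that both were at least 2-fold higher follows from the filter. At least 2-fold higher were 2.89% of 10058 genes (4.85% either way), and nothing is read from the count of members. Sorted from co-culture with EMT6.5, Bend3 held 4.35 CPM of Krt18, 2.18 of Krt8, 1.27 of Krt80 and 1.09 CPM of Krt7, and no member reached a mean of 5 CPM, where 4.44% of genes were at 2-fold either way. Both comparisons use the same Bend3 library grown alone.

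Summed epithelial markers were higher along with the keratins in Bend3 sorted from 4T1. They were not in Bend3 sorted from EMT6.5, where this list could show little. The sorted EMT6.5 cells held only 77.8 CPM of it, against 1380 CPM in the sorted 4T1 cells. The summed members in Bend3 were 1.35 CPM alone, 40.8 CPM with 4T1 and 8.89 CPM with EMT6.5, which is 3.13% and 1.39% of the level in the tumour cells sorted from the same co-culture. The summed epithelial markers were 4.27, 27.9 and 3.26 CPM. With the level of Bend3 alone subtracted, the co-culture values were 1.71% of the sorted 4T1 and -1.29% of the sorted EMT6.5. The same shares for the summed members were 3.03% and 1.18%. Epcam was at 0.225, 2.19 and 0 CPM and Cdh1 at 0.225, 4.92 and 0 CPM. Krt80, at 1.84 CPM in 4T1 with Bend3, was at 0 in Bend3 with 4T1, and Krt14, at 16.1 CPM in that partner, was at 0 too. In that Bend3 library 3 counts would be 0.547 CPM, so nothing is read from these 0 values. Single members ranged from 1.91% of the partner's level for Krt18 to 7.52% for Krt7 among those detected in Bend3 with 4T1. Among those detected in Bend3 with EMT6.5 the range was 0.908% for Krt7 to 11.2% for Krt80, on 6 and 7 counts. Fibroblast markers summed to 8.09 CPM in Bend3 alone, 17.7 CPM with 4T1 and 47.5 CPM with EMT6.5. The tumour cells sorted from those co-cultures held 182 CPM of them in 4T1 and 2720 CPM in EMT6.5. Whether tumour cells or their RNA in the endothelial sort, or the endothelial cells, carried the keratins seen in Bend3 was not tested.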

How the data were processed

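RNA was extracted from cultured cells, made into stranded mRNA libraries and sequenced as single-end reads, per the labels. The authors deposited raw counts per gene; per the submitters' processing notes these came from HISAT2 2.1.0 after Trim Galore 0.5.0, and an HTSeq whose version is not given, with GRCm38 as the mouse build. The human build, the annotation and the strand and multiple-alignment settings of counting are not given in the sources used here. Of 16 columns of the knockdown table, 6 matched the labels and 10 were not used. The keratins and gene lists were chosen with earlier results of these data known.

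Each replicated experiment was fitted over all its genes with edgeR 4.0.16 (R 4.3.3): TMM scaling, the default filter on low counts, the quasi-likelihood F-test and Benjamini-Hochberg adjustment, called at an adjusted p under 0.05. Co-culture ratios are of TMM-scaled CPM with exact 95% intervals. Levels per kb used merged exon lengths of GENCODE vM21, which held 95.7% of the knockdown symbols. The fitting script was tested on simulated data. Named genes were all 9 members and, from each list, at most 6 called genes of at least 5 CPM with the largest change, plus Vim. Alternatives were library totals, DESeq2 1.42.0, no filter, lane, a replicate term, each library left out, chromosome medians and plain CPM. The co-culture intervals cover counting error only, because each condition is 1 library. Counts hold no molecular identifiers, so amplification copies were not told apart and these intervals may be too narrow.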

Additional observations from a re-analysis of the deposited data

Results flagged for a closer look

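For 2 keratins, the ratios of co-culture with Bend3 to monoculture lay on opposite sides of 1 in the tumour lines with both counting intervals clear of 1, with 1 library per condition, so the difference between the lines was not tested. Krt8 was 3.01 times its monoculture level in 4T1 (2.62 to 3.47) and 0.846 times in EMT6.5 (0.767 to 0.932), from 58.9 to 177 CPM and from 154 to 130 CPM. Krt19 was 2.15 times its monoculture level in 4T1 (1.77 to 2.63) and 0.168 times in EMT6.5 (0.0191 to 0.693), the latter on 20 counts alone and 2 with Bend3, below the level used elsewhere for a ratio. Krt18 (2.05 and 0.968) and Krt14 (1.25 and 0.416) also lay on opposite sides of 1, each with 1 interval that includes 1.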

How the results depend on the processing

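The 13 member fold changes of the replicated experiments were refitted in 144 alternatives; 141 kept direction and call, and the 3 exceptions were all KRT19 (adjusted p of 0.0519 to 0.0572, edgeR). Counts of members called stayed at 3 higher and 4 lower in the knockdown and at 5 to 6 higher and 0 lower in MDA-MB-231. With plain CPM in place of CPM per kb the simple to basal difference was 1.47 against 1.58, and with 1 library left out it ran from 1.56 to 1.60. Subtracting the median of the 50 nearest genes, an alternative chosen after seeing the data, as was leaving libraries out of the simple to basal ratio, left Krt80 at -0.018, reversed against 0.30, Krt8 at 0.009, Krt18 at 0.24 and Krt7 at -0.465. Of 38 co-culture alternatives 37 stayed within the counting interval, the exception being Krt18 in 4T1 at 1.93; Krt7 in EMT6.5 came to 0.494 with library totals. Replicate numbers do not pair the libraries (correlations of same-numbered deviations from -0.0546 to 0.0381). With the replicate block, 3 members were higher and 4 lower in the knockdown and 6 higher and 0 lower in MDA-MB-231, and over all genes 3356 were higher and 3229 lower in the knockdown and 3758 and 4003 in MDA-MB-231; it changed no member's call. Depth limits the co-culture set most: Krt17, Krt19 in EMT6.5 and keratins in Bend3 rest on few counts, and 1 library per condition leaves culture-to-culture spread unmeasured.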

Other observations

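Over the 7 co-culture libraries, the 3 non-keratin genes whose log2 CPM followed Krt18 most closely among 9440 genes were Fhl2 (Pearson r 0.996), Spn (0.995) and Isyna1 (0.995), and those for Krt14 were Mapk13 (0.996), Pcolce2 (0.996) and Fmnl1 (0.994). The 7 points fall into 4 tumour and 3 endothelial libraries, and the values carry no test.

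A pair of keratins outside the 9, chosen after their values were seen, stood out in 4T1 sorted from co-culture. Krt13, a keratin of stratified mucosa, was at 0.86 CPM in 4T1 alone and 13.1 CPM with Bend3, and Krt15, a basal keratin, was at 0 and 5.07 CPM; in Bend3 sorted from the same co-culture they were at 0 and 0.365 CPM.

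The 4T1 libraries of the 2 mouse tables differed in keratin level. The shSCR mean was 22.0 times the level of 4T1 alone for Krt17, 13.7 times for Krt14 and 11.2 times for Krt8. It was 3.99 times for Krt19, 2.73 times for Krt7, 2.28 times for Krt18 and 2.13 times for Krt80. The ratios of Krt17 and Krt14 rest on 8 and 60 counts in 4T1 alone, so that of Krt17 is imprecise. The tables were normalized separately, and vector, culture and counting cannot be told apart here.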
